A study of Mus musculus with 6 samples.

Results

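The cells described here were the epithelial cells of mammary glands with ductal carcinoma in situ (DCIS) in which the SV40 large T antigen of the C3(1)-Tag mouse was, or was not, detected as mRNA. A cell entered if it had at least 200 detected genes, under 10% mitochondrial UMIs, at least 5000 UMIs, at least 1 UMI of Epcam and none of Ptprc or Dcn, where a UMI is 1 counted mRNA molecule. The sides were chosen by the measured UMIs of the T antigen itself: cells with at least 1 were called T-antigen+, and cells with 0 T-antigen-. The gate kept 1877 of the 7702 barcodes of the DCIS libraries, out of 23835 barcodes in the whole series, and all 1877 entered the comparison, 379 as T-antigen+ and 1498 as T-antigen- cells.

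All animals were female C3(1)-Tag mice, labelled C3TAG, a line developed on the FVB/NJ strain, and no library of mice without the transgene was used here. DCIS was the whole gland at 14 weeks of age, Prepuberty the whole gland at 5 weeks and Tumor a palpable tumour at over 18 weeks, with 2 libraries of each. Glands were digested overnight in collagenase and hyaluronidase, and T-antigen+ and T-antigen- cells of a library therefore shared 1 gland preparation and 1 library. The labels do not say whether DCIS 1 and DCIS 2 came from separate mice. An SE or p-value rests on how far the differences within the 2 libraries disagree, which may be technical. It rests more on the spread that the fit shares across genes, so that it is no measure of variation between mice.

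In this line the C3(1) promoter, taken from a rat prostatein gene, directs the large T antigen to the mammary epithelium, among other tissues. The large T antigen binds and inactivates the retinoblastoma protein, which otherwise holds back E2F transcription factors at genes of DNA synthesis and division, and it binds p53, which otherwise induces genes of arrest and cell death. The mammary duct is built of an inner luminal layer, which holds hormone-sensing cells and progenitor or secretory cells, and an outer layer of contractile myoepithelial cells. The large T antigen is a viral protein, so its transcript marks the transgene directly, although a transcript that is present can be missed in droplet data.

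DCIS 1 gave 265 T-antigen+ and 710 T-antigen- cells, and DCIS 2 gave 114 and 788. The T-antigen+ cells were read more deeply: their median was 14169 UMIs against 8952 in DCIS 1, and 17721.5 against 8700 in DCIS 2. The median mitochondrial share was lower in T-antigen+ cells, at 1.55% against 1.86% in DCIS 1 and 1.82% against 2.496% in DCIS 2. The T antigen itself, which set the sides, had 430 UMIs in DCIS 1 and 186 in DCIS 2. Of the T-antigen+ cells, 165 (62.3%) in DCIS 1 and 74 (64.9%) in DCIS 2 held a lone UMI, just inside the limit, whereas every T-antigen- cell held 0. The highest count in a cell was 7 in DCIS 1 and 11 in DCIS 2. Among cells with Dcn and no Epcam, a population of the stroma, the T antigen was seen in 3 of 477 cells (0.629%, exact binomial 95% interval 0.130 to 1.83%) in DCIS 1 and in 0 of 869 in DCIS 2, which allows up to 0.345% when 3 cells are allowed for a count of 0 and 0.424% by the exact interval. When every cell was thinned at random to 5000 UMIs, 129 of 265 (48.7%) and 47 of 114 (41.2%) T-antigen+ cells still showed a T-antigen UMI, so that a T-antigen- cell is a cell in which the transcript was not detected at its depth. Intervals and limits here cover counting error only.

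The label of the cells was checked against epithelial genes. Krt18, a keratin of simple epithelia, was seen after thinning in 93.6% and 97.4% of T-antigen+ cells and in 86.2% and 84.9% of T-antigen- cells of DCIS 1 and DCIS 2, against 9.64% and 10.9% of the Dcn+ Epcam- cells. Markers of other cell types were also present, those of immune and endothelial cells mainly on the T-antigen- side. Summed over 10 immune markers, the T-antigen+ cells held 68.9 and 39.7 CPM (UMIs of a gene per 1000000 UMIs of the sum) and the T-antigen- cells 238 and 369. Over 5 endothelial markers the sums were 14.2 and 24.4 CPM against 143 and 123. Cd3e and Ms4a1, which define T and B cells, were at 0 or near it throughout, but Igkc, an immunoglobulin light chain of B and plasma cells named here after its values were seen, stood at 12.8 against 2077 CPM in DCIS 1 and at 0 on both sides of DCIS 2. The 6 fibroblast markers had sums of 27.8 against 28.6 CPM in DCIS 1 and 13.5 against 14.5 in DCIS 2. The sum of 4 Schwann markers was 44.5 against 40.2 CPM in DCIS 1 and 73.3 against 40.4 in DCIS 2, higher on the T-antigen+ side, and none of the 3 tested passed. All 6 immune markers tested (Tyrobp, Fcer1g, Cd68, C1qa, Lyz2 and Laptm5) and all 5 endothelial markers were lower in T-antigen+ cells, and 1 of 2 pericyte markers tested, Rgs5, was lower too. A stricter gate, which also required 0 UMIs of Col1a1, Col3a1, Pecam1, Rgs5, Tyrobp, Cd3e and 1 further marker, kept 174 T-antigen+ and 533 T-antigen- cells of DCIS 1 and 91 and 661 of DCIS 2. In these cells the endothelial sum was 12.1 against 5.28 and 6.13 against 3.83 CPM, and the immune sum was 37.9 against 68.3 and 39.0 against 80.9 CPM. Of the markers still tested there, 1 of 3 immune markers was lower, and the lone endothelial marker did not pass. The part of such cells or of their free RNA in the differences below was not tested, and results under the stricter gate are given beside each gene list. Without cells whose barcode also occurred in another library, 261 T-antigen+ and 693 T-antigen- cells of DCIS 1 and 110 and 769 of DCIS 2 were left, with 73 genes higher and 470 lower.

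UMIs were summed over the cells of each side of each library and compared within libraries, so that a gene has 4 values: DCIS 1 T-antigen+, DCIS 1 T-antigen-, DCIS 2 T-antigen+ and DCIS 2 T-antigen-. CPM of these sums carry TMM scaling factors, and a log2 difference is T-antigen+ minus T-antigen-. In such sums fewer cells of a type and less RNA per cell cannot be told apart. Of 11604 genes tested, 275 were higher (2.37%) and 764 were lower (6.58%) in T-antigen+ cells at an adjusted p under 0.05 (8.95% in either direction), and 2449 had an unadjusted p under 0.05. DESeq2 called 24 higher and 222 lower. The counts depend on the library that is left out: 876 higher and 1050 lower genes without DCIS 1, and 212 and 526 without DCIS 2. Under the stricter gate 17 genes (0.159%) were higher and 163 (1.52%) lower, and with sides matched cell by cell on total UMIs 79 (0.772%) were higher and 332 (3.24%) lower. Cells thinned to 5000 UMIs gave 15 higher (0.153%) and 225 lower (2.29%) genes, and with the sides also set from the thinned counts 67 (0.668%) and 268 (2.67%). The stricter gate with at least 10 keratin UMIs a cell gave 53 (0.505%) and 251 (2.39%). Genes that set the gate and the sides were left out of the test. Epcam, required in every cell, stood at 2380 and 1929 CPM in T-antigen+ cells and at 2245 and 1355 in T-antigen- cells.

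Genes of cell division were higher in T-antigen+ cells. Of 28 genes of mitosis, all tested, 18 were higher and none lower, with a median log2 difference of 0.74 against 0.01 over all genes tested, and of 26 genes of DNA replication and S phase 11 were higher and none lower, with a median of 0.54. Birc5, which encodes survivin of the chromosomal passenger complex, stood at 191 CPM in T-antigen+ against 115 in T-antigen- cells of DCIS 1 and at 202 against 71 in DCIS 2. Both T-antigen+ sums of Birc5 lay above both T-antigen- sums (log2 difference 1.12 ± 0.16 (SE), adjusted p = 6.0e-04), as did those of 18.5% of all genes tested. Top2a, the topoisomerase that untangles sister chromatids, stood at 389.6 against 261 and 304 against 136 CPM (0.87 ± 0.14 (SE), adjusted p = 8.9e-04). Mki67, the Ki-67 antigen of dividing cells, stood at 72.8 against 52.3 and 77 against 31.3 CPM (0.87 ± 0.19 (SE), adjusted p = 0.0089). For Mki67 and Top2a too, the groups did not overlap, and the T-antigen- cells of DCIS 2 were the lowest of the 4. Among the mitosis genes the largest difference was that of Kif20a, a kinesin of cytokinesis, at 17.3 against 7.64 and 17.9 against 6.35 CPM (1.33 ± 0.25 (SE), adjusted p = 0.0039). Ccnb2, a mitotic cyclin, was higher by 1.07 on the log2 scale (adjusted p = 0.0053).

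S-phase genes had a smaller median difference than the mitosis genes, at 0.54 against 0.74. The ranges overlapped, at 0.31 to 0.82 and 0.31 to 1.33, and the 2 lists were not tested against each other. Rrm2, the small subunit of ribonucleotide reductase, stood at 46.8 against 37.1 CPM in DCIS 1 and at 46.6 against 22.5 in DCIS 2 (0.67 ± 0.19 (SE), adjusted p = 0.042). Mcm6, a subunit of the replicative helicase named here for the promoter shown next and after its values were seen, stood at 139 against 122 and 147 against 75.9 CPM (0.57 ± 0.17 (SE), adjusted p = 0.048). The 11 higher genes included Rrm2, Mcm6, Tyms, Cdt1, Uhrf1, Pold1, Dut, Slbp, Lig1 and Clspn, and the other 15, Pcna and Mcm2 among them, did not pass. The S-phase difference lay mostly in DCIS 2: the list median was 0.22 without DCIS 2 and 0.92 without DCIS 1. For the mitosis genes it was 0.51 and 1.06 in the same order. No S-phase gene passed with DESeq2, with thinned cells or without high doublet scores, against 6, 5 and 7 mitosis genes. With matched depth 7 mitosis genes and 1 S-phase gene were higher, and under the stricter gate 2 (Ube2c and Kif20a) and none, while the medians under that gate were 0.80 and 0.55. With cells of 2 or more hormone-sensing or myoepithelial UMIs taken out, 4 of 28 mitosis genes were higher, at a median of 0.30. None of 26 S-phase genes was higher, at a median of 0.11. That cut, used for the lists below as well, counted unthinned UMIs and so depends on depth as well as on lineage. It left 214 of 265 T-antigen+ and 489 of 710 T-antigen- cells of DCIS 1, and 75 of 114 and 248 of 788 of DCIS 2. The part of depth in the smaller medians was not tested. Without DCIS 2, Rrm2 differed by 0.35 (adjusted p = 0.22) and Mcm6 by 0.21 (adjusted p = 0.4), and of 22 alternatives Mcm6 passed in 2 and Rrm2 in 3, against 19 for Birc5 and 16 for Top2a.

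Promoters of these genes are shown because E2F factors are known to act on genes of S phase and the DREAM complex, which holds proteins of the RB family, on genes of mitosis through the CHR element. E2F sites were searched as TTTCGCGC, TTTGGCGC, TTTCCCGC and TTTGCCGC, and the cell cycle homology region (CHR) as TTTGAA, on both strands of the 300 bases from 250 before to 50 after the start of each RefSeq gene (GRCm38.p6). An E2F motif was found in 704 of 27025 promoters (2.61%), in 446 of the 8998 tested genes that matched by symbol (4.96%) and in 11 of the 22 S-phase genes that matched by symbol (50.0%), among them 6 of the 10 higher ones. The CHR motif was found in 5466 of all promoters (20.2%), in 1278 of the tested genes (14.2%) and in 17 of 23 matched mitosis genes (73.9%), among them 13 of the 14 higher ones. The examples are each the 150 bases before the start, 5′ to 3′ on the strand of the gene, with the motif in capitals. The run of 12 capitals in Mcm6 holds overlapping E2F matches on both strands, and TTCAAA in Top2a and Ube2c is the CHR motif on the other strand.
Mcm6, chr1:128359706-128359855, minus strand, E2F motif: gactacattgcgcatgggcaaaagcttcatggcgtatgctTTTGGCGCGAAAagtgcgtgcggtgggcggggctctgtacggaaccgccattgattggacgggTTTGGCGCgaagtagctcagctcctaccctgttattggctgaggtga
Top2a, chr11:99024190-99024339, minus strand, CHR motif: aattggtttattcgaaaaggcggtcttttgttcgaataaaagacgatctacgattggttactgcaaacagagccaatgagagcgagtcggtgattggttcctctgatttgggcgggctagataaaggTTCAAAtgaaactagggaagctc
Cdc20, chr4:118437344-118437493, minus strand, CHR motif: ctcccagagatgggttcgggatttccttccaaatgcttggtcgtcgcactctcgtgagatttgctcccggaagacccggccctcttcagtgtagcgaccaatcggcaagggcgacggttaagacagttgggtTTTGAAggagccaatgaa
Ube2c, chr2:164769779-164769928, plus strand, CHR motif: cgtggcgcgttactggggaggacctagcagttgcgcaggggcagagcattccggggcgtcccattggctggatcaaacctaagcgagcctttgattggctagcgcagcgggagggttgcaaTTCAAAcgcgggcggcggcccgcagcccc
A match describes these letters and is not a measured binding site. Cdc20 and Ube2c, the activator and the E2 enzyme of the anaphase-promoting complex, were chosen for their promoters after their values were seen. Cdc20 was at 126 against 101 and 109 against 54.9 CPM (0.64 ± 0.16 (SE), adjusted p = 0.024), and Ube2c at 293 against 189.8 and 263 against 116 CPM (0.90 ± 0.14 (SE), adjusted p = 7.7e-04). Passing the threshold was a condition for being shown, so that the direction of these 4 genes is no result about the motif.

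The share of cells with a cycle gene differed as well. After thinning to 5000 UMIs, at least 1 UMI of Mki67, Top2a, Ccnb1, Cdk1 or Rrm2 was seen in 222 of 265 T-antigen+ cells of DCIS 1 (83.8%, interval 78.8 to 88.0%) and in 410 of 710 T-antigen- cells (57.7%, 54.0 to 61.4%). In DCIS 2 it was seen in 96 of 114 (84.2%, 76.2 to 90.4%) and in 237 of 788 (30.1%, 26.9 to 33.4%). The 2 libraries were alike on the T-antigen+ side and apart on the T-antigen- side. Dcn+ Epcam- cells, at median depths of 8754 and 8599 UMIs before thinning, showed a cycle gene in 3.98% and 3.45%. Without thinning the shares were 92.8% against 65.6% and 99.1% against 36.8%. Only 19 T-antigen+ cells of DCIS 1 and 1 of DCIS 2 had no UMI of these 5 genes, so that a comparison of cells without cycle transcripts could not be made. Cells that did have a UMI of them were 246 and 113 T-antigen+ and 466 and 290 T-antigen- cells. Among these cells 68 genes (0.625%) were higher and 168 (1.54%) lower. Of the mitosis genes 3 remained among the higher ones (Birc5, Ccnb2 and Cenpa), at a list median of 0.22. No S-phase gene did, at a list median of 0.039. The 5 genes that chose these cells belong to the 2 lists, so that smaller differences in them are in part set by the choice. Matched on depth, such cells gave 10 higher (0.0991%) and 62 lower (0.614%) genes, and without hormone-sensing and myoepithelial cells 32 (0.321%) and 78 (0.783%).

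**Figure D1:**
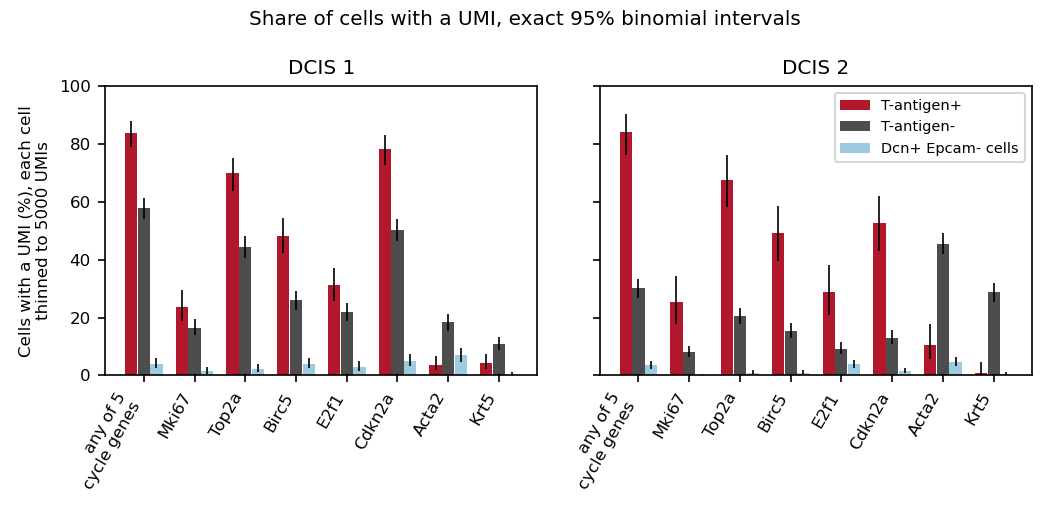
Percent of cells with a UMI of each gene or gene set after thinning every cell to 5000 UMIs, for T-antigen+, T-antigen- and Dcn+ Epcam- cells of DCIS 1 and DCIS 2, with exact 95% binomial intervals as bars. Cycle genes were seen in 83.8% and 84.2% of T-antigen+ cells against 57.7% and 30.1% of T-antigen- cells, and Cdkn2a in 78.1% and 52.6% against 50.3% and 13.1%, whereas Acta2 was seen in 3.77% and 10.5% against 18.3% and 45.6%.

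In the RB and E2F pathway 5 of 20 genes were higher and 1 was lower, with a median log2 difference of 0.55. E2f1, the transcription factor released from the retinoblastoma protein, stood at 89.5 against 68.9 CPM in DCIS 1 and at 77.5 against 30.9 in DCIS 2 (0.82 ± 0.20 (SE), adjusted p = 0.017). Rb1 itself stood at 25.6 against 19.4 and 31.7 against 15.9 CPM and did not pass (adjusted p = 0.06). Cdkn2a, whose transcripts encode the CDK inhibitor p16Ink4a and the p53 activator p19Arf, stood at 445 against 330.3 and 243 against 90.8 CPM (0.91 ± 0.17 (SE), adjusted p = 0.0042). The Cdkn2a sums overlapped between libraries, the T-antigen- cells of DCIS 1 lying above the T-antigen+ cells of DCIS 2, and the difference is one within libraries. After thinning, Cdkn2a was seen in 78.1% of T-antigen+ and 50.3% of T-antigen- cells of DCIS 1 and in 52.6% and 13.1% of DCIS 2, against 5.03% and 1.496% of Dcn+ Epcam- cells. Its neighbour Cdkn2b, which encodes p15Ink4b, was higher by 0.84 (adjusted p = 0.0035), Cdkn2c by 0.69 (adjusted p = 0.043) and Cdk6 by 0.60 (adjusted p = 0.042). Ccnd2, cyclin D2, was the member that was lower, at 1.71 against 6.48 and 1.25 against 9.69 CPM (-2.29 ± 0.44 (SE), adjusted p = 0.0041). With matched depth 2 members were higher, and under the stricter gate none passed, with a median of 0.50 (Cdkn2a 0.86, adjusted p = 0.122; E2f1 0.76, adjusted p = 0.18). Without hormone-sensing and myoepithelial cells no member of the list passed, with a median of 0.27. Without DCIS 2, E2f1 differed by 0.39 and did not pass (adjusted p = 0.122).

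Repair and chromatin genes that accompany replication were also among the higher genes. Of 13 repair genes 4 were higher, among them Brca1, the BRCA1 partner Bard1 and the histone variant gene H2afx. Brca1 stood at 14.1 against 8.03 and 17.5 against 5.77 CPM (1.18 ± 0.28 (SE), adjusted p = 0.016). Of 11 chromatin genes tested 7 were higher (Ezh2, Hmgb2, H2afz, Asf1b, Smc2, Smc4 and Stmn1). Ezh2, the methyltransferase of Polycomb complex 2, stood at 151 against 123 and 107 against 68 CPM (adjusted p = 0.0496). Without DCIS 1, 6 repair and 9 chromatin genes were higher, and without DCIS 2, 2 of each. With matched depth none of 12 repair genes and 3 chromatin genes were higher, at medians of 0.34 and 0.35, and with DESeq2 no member of either list passed. Neither list had a member past the threshold under the stricter gate, at medians of 0.56 for repair and 0.49 for chromatin against 0.58 and 0.51 with the gate as set. With hormone-sensing and myoepithelial cells taken out none of the repair genes and 2 of the chromatin genes were higher, at medians of 0.12 and 0.18.

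Targets of p53 were lower where they differed. Of 19 genes, p53 itself included, 5 were lower and none higher, with a median log2 difference of -0.39. Gdf15, a secreted stress cytokine, stood at 18.6 CPM in T-antigen+ against 125 in T-antigen- cells of DCIS 1 and at 23.7 against 130.3 in DCIS 2 (-2.61 ± 0.16 (SE), adjusted p = 3.4e-07). The Gdf15 groups lay far apart, but 5 cells held 61.8% of its UMIs in the T-antigen- cells of DCIS 1 and 41.0% in those of DCIS 2, and under the stricter gate the difference was -0.78 and did not pass (adjusted p = 0.187). Cdkn1a, the CDK inhibitor p21, stood at 106 against 155 and 117 against 182 CPM (-0.58 ± 0.12 (SE), adjusted p = 0.0093). After thinning, Cdkn1a was seen in 36.2% of T-antigen+ against 36.8% of T-antigen- cells of DCIS 1 and in 38.6% against 42.9% of DCIS 2, with overlapping intervals. Trp53inp1, Aen and Btg2 were lower, with log2 differences of -1.09, -0.78 and -0.57. Trp53, which encodes p53, stood at 75.6 against 91.1 and 92.9 against 107 CPM, and Mdm2, its ubiquitin ligase and target, at 29.7 against 39.1 and 38.3 against 50.1 CPM. Neither passed (adjusted p = 0.369 and 0.184). Under the stricter gate Trp53inp1 was the lone member of the list that passed, at a list median of -0.40, and 2 members were lower without hormone-sensing and myoepithelial cells, at a median of -0.22.

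Among the gene lists the largest median difference with the gate as set was that of the basal and myoepithelial genes. The endothelial markers had the larger one with matched depth, at -2.87 against -2.26, and without high doublet scores, at -4.00 against -3.34. All 11 basal and myoepithelial genes were lower in T-antigen+ cells, with a median log2 difference of -3.33. Acta2, smooth muscle actin (ENSMUSG00000035783, chr19:34241090-34255590, minus strand, in GRCm38 as are all positions here), stood at 21.4 against 928 CPM in DCIS 1 and at 35.8 against 1599.9 in DCIS 2 (-5.45 ± 0.11 (SE), adjusted p = 1.9e-12). Contractile genes followed: Myh11, smooth muscle myosin, stood at 2.56 against 33.3 and 2.5 against 102 CPM (-4.44 ± 0.30 (SE), adjusted p = 5.7e-07). Cnn1, calponin, stood at 6.19 against 83.2 and 4.58 against 183 CPM (-4.37 ± 0.26 (SE), adjusted p = 2.7e-07). In each of these genes both T-antigen+ sums lay below both T-antigen- sums. Of all genes tested 21.7% separated in this way, whereas the weaker criterion of a lower value within each library was met by 33.7%, and that of a higher value by 32.7%. Oxtr, the oxytocin receptor that triggers contraction, stood at 1.92 against 23.7 and 0.416 against 66.4 CPM, resting on 9 and 1 UMIs on the T-antigen+ side. Basal keratins differed by less than the contractile genes. Krt5 stood at 10.3 against 39.1 and 3.33 against 101 CPM (-2.96 ± 0.39 (SE), adjusted p = 2.3e-04), and Krt14 at 317 against 534 and 154 against 424 CPM (-1.09 ± 0.14 (SE), adjusted p = 2.3e-04). Krt14 was seen in 54.7% of T-antigen+ and 52.1% of T-antigen- cells of DCIS 1 and in 26.3% and 49.2% of DCIS 2 after thinning, so that the libraries differed in it.

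Few T-antigen+ cells carried the myoepithelial genes. At least 2 UMIs summed over Acta2, Myh11, Oxtr and Cnn1 were seen after thinning in 5 of 265 T-antigen+ cells of DCIS 1 (1.89%, 0.615 to 4.35%) and in 116 of 710 T-antigen- cells (16.3%, 13.7 to 19.3%). In DCIS 2 they were seen in 5 of 114 (4.39%, 1.44 to 9.94%) and in 350 of 788 (44.4%, 40.9 to 48.0%). The shares in Dcn+ Epcam- cells, 2.31% and 2.30%, lay within the T-antigen+ intervals. Acta2 alone was seen in 3.77% and 10.5% of T-antigen+ cells against 6.92% and 4.72% of Dcn+ Epcam- cells. The 5 richest cells held 81.0% and 76.7% of the Acta2 UMIs on the T-antigen+ side. Under the stricter gate 9 of 11 genes were lower, with matched depth 9, among cells with a cycle gene 8, and all 11 when either library was left out. The median was -3.35 under the stricter gate, -2.26 with matched depth and -1.29 among cells with a cycle gene, and among such cells matched on depth 3 of 11 were lower, with a median of -1.03. With cells of 2 or more hormone-sensing or myoepithelial UMIs taken out, which removes cells by Acta2, Myh11, Oxtr and Cnn1 themselves, 0 of the 7 still tested were lower beside 296 of all genes (2.87%; 35, or 0.339%, were higher), and Acta2 differed by -0.30 (adjusted p = 0.806).

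**Figure D2:**
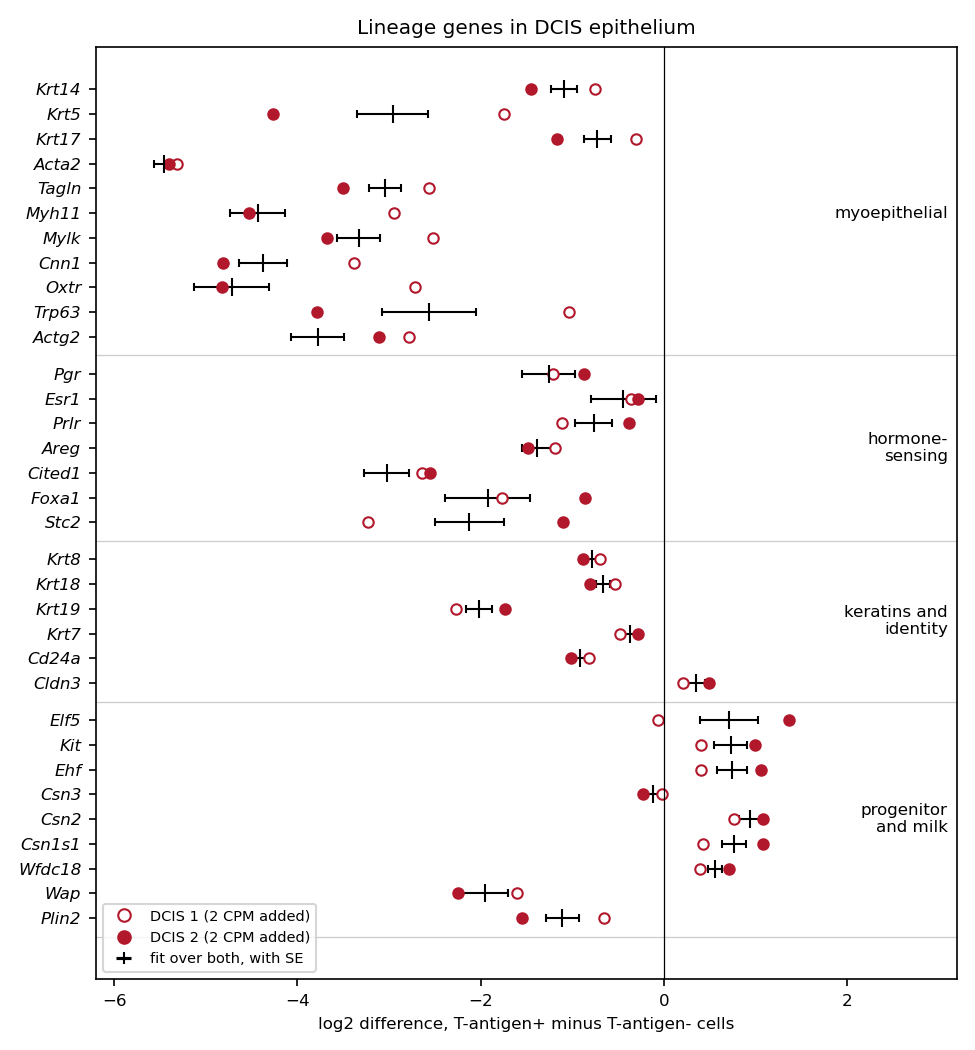
Log2 difference, T-antigen+ minus T-antigen-, of lineage genes in DCIS 1 (open points, 2 CPM added) and DCIS 2 (filled points), with the fitted value and its SE. Acta2 lies farthest to the lower side, at -5.45, and Kit, Ehf, Csn2, Csn1s1, Wfdc18 and Cldn3 lie on the higher side in both libraries.

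Hormone-sensing genes were lower too. Of 11 tested, 7 were lower and none higher, with a median log2 difference of -1.26. Cited1, a transcriptional co-regulator of oestrogen response (chrX:102247381-102252181, minus strand), stood at 2.14 against 23.7 and 10 against 68.7 CPM (-3.03 ± 0.24 (SE), adjusted p = 2.9e-06). Areg, the EGF receptor ligand amphiregulin, stood at 23.9 against 57 and 24.2 against 71 CPM (-1.38 ± 0.17 (SE), adjusted p = 1.3e-04). The receptors themselves were sparse. Pgr, the progesterone receptor, stood at 2.56 against 8.55 and 11.7 against 23 CPM (-1.26 ± 0.29 (SE), adjusted p = 0.014), and Prlr, the prolactin receptor, at 13 against 30.6 and 47.5 against 62.7 CPM (-0.76 ± 0.20 (SE), adjusted p = 0.031), with the T-antigen+ sum of DCIS 2 above the T-antigen- sum of DCIS 1. Esr1, the oestrogen receptor, stood at 3.2 against 4.66 and 5.83 against 7.5 CPM and did not pass (adjusted p = 0.543). Stc2, Foxa1 and Greb1 were lower, with log2 differences of -2.12, -1.92 and -2.76. Cells with at least 2 UMIs summed over Prlr, Pgr, Esr1, Areg and Cited1 made up 4.15% of T-antigen+ and 8.45% of T-antigen- cells of DCIS 1 and 9.65% and 17.4% of DCIS 2 after thinning, against 2.10% and 3.45% of Dcn+ Epcam- cells. The intervals of the sides overlapped in both libraries. Without thinning the shares were 15.5% against 13.7% and 25.4% against 24.2%. Prlr and Pgr did not pass when either library was left out (Prlr -0.40 without DCIS 1 and -1.21 without DCIS 2). Cited1 and Areg were the members that passed under the stricter gate, and among cells with a cycle gene 4 members did. With DESeq2 3 members were lower, with matched depth 3 of 10, and with cells thinned and sides set anew 2 of 10, at a median of -0.48. When hormone-sensing and myoepithelial cells were taken out, which removes cells by Prlr, Pgr, Esr1, Areg and Cited1 themselves, none of the 6 still tested passed, at a median of -0.21.

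Of 10 luminal keratin and identity genes 5 were lower and 1 was higher. Krt18 stood at 2047 against 2957 and 2523 against 4412 CPM (-0.66 ± 0.07 (SE), adjusted p = 5.9e-05), and Krt8, its partner in the filament, at 769.5 against 1253 and 947 against 1743 CPM (-0.78 ± 0.08 (SE), adjusted p = 3.1e-05). Both were lower within each library, and the share of cells with a UMI was not lower, so no order is read from those shares. Krt19, a keratin of luminal cells (chr11:100140810-100148665, minus strand), differed most, at 50.6 against 253 and 152 against 510.4 CPM (-2.02 ± 0.14 (SE), adjusted p = 8.0e-07). Krt7 and Cd24a, a surface glycoprotein of luminal cells, were lower, at -0.37 and -0.91 on the log2 scale, and Cldn3, a tight-junction claudin, was higher by 0.36 (adjusted p = 0.038). Cldn3 passed in 2 of 22 alternatives, without DCIS 1 and with no filter on low counts. Krt8, Krt18, Krt19 and Cd24a were lower with matched depth and under the stricter gate, as were Krt8, Krt18 and Krt19 when hormone-sensing and myoepithelial cells were taken out (Krt19 -1.18, adjusted p = 4.5e-04).

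Progenitor and milk genes gave a mixed picture. Of 8 luminal progenitor genes 2 were higher, Kit, the stem cell factor receptor, at 44 against 32.8 and 63.3 against 30.8 CPM (0.73 ± 0.18 (SE), adjusted p = 0.02), and Ehf, an ETS factor, at 104 against 78.1 and 111 against 52.2 CPM (0.74 ± 0.17 (SE), adjusted p = 0.011). Neither passed without DCIS 2 (Kit 0.44, adjusted p = 0.091; Ehf 0.43, adjusted p = 0.088). Elf5, the ETS factor of alveolar cells, stood at 13.5 against 14.1 and 25.4 against 8.65 CPM and did not pass (adjusted p = 0.215). Of 13 milk and secretory genes tested 3 were higher and 2 lower, with a median of 0.01, equal to that of all genes. Csn2, beta-casein, stood at 411 against 242 and 476 against 223 CPM (0.94 ± 0.11 (SE), adjusted p = 1.0e-04), and Csn1s1, alpha-S1-casein, at 712 against 528 and 1073 against 505 CPM (0.77 ± 0.13 (SE), adjusted p = 0.0015). Without DCIS 2, Csn1s1 did not pass (0.45, adjusted p = 0.208). Both caseins were carried by few cells: 5 cells held 92.0% and 72.1% of the Csn2 UMIs of the T-antigen+ cells. With cells thinned and the sides set anew from the thinned T-antigen count, Csn2 was lower in T-antigen+ cells (-1.45, adjusted p = 7.4e-04), the reverse direction. Wfdc18, a secreted whey acidic protein relative, was higher by 0.56, Plin2, the coat of milk fat droplets, was lower at -1.11, and Wap, whey acidic protein, was lower at -1.96 with at least 95.2% of its UMIs in 5 cells of each sum. Under the stricter gate Csn2 and Csn1s1 were higher and Wap lower, while of the progenitor genes Cd14 was higher and neither Kit (adjusted p = 0.182) nor Ehf (adjusted p = 0.064) passed. Both lists turned when hormone-sensing and myoepithelial cells were taken out: no progenitor gene was higher and Aldh1a3 was lower, at a median of -0.21, and 1 milk gene was higher and 5 were lower, at a median of -0.43.

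Genes of glycolysis and hypoxia were lower where they differed, 8 of 17, with a median of -0.49. Without DCIS 1, 14 were lower, at a median of -0.84, and without DCIS 2, 6, at a median of -0.25. Slc2a1, the glucose transporter GLUT1, stood at 16.9 against 63.9 and 35 against 217 CPM (-2.28 ± 0.18 (SE), adjusted p = 2.7e-06), and Vegfa at 5.98 against 15.5 and 7.5 against 41.9 CPM (-1.90 ± 0.28 (SE), adjusted p = 5.7e-04). The T-antigen- cells of DCIS 2 were the highest sum in both. Bnip3, P4ha1 and Pkm were lower, with log2 differences of -1.26, -1.26 and -0.49. With matched depth 3 of the 17 were lower, under the stricter gate 2, at a median of -0.47, without hormone-sensing and myoepithelial cells 2, at a median of -0.21, and among cells with a cycle gene 1, with Slc2a1 at -0.50 (adjusted p = 0.099).

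Of 9 mesenchymal genes tested 4 were lower and 1 higher. Vim, vimentin, stood at 15.2 against 83.9 and 16.2 against 77.7 CPM (-2.37 ± 0.18 (SE), adjusted p = 1.4e-06), and Sparc, a matricellular protein that myoepithelial and endothelial cells also express, at 55.1 against 271 and 62.1 against 490.3 CPM (-2.62 ± 0.16 (SE), adjusted p = 2.7e-07). Zeb1 and Snai2, transcription factors, were lower, with log2 differences of -2.50 and -2.42, at sums of at most 11.5 CPM. Fn1, fibronectin, was the higher member, at 262 against 158 and 133 against 56.8 CPM (0.97 ± 0.14 (SE), adjusted p = 5.6e-04). Under the stricter gate 2 of the 7 still tested, Vim and Sparc, were lower and none higher, with Fn1 at 1.11 (adjusted p = 0.06), and the median of the list went from -0.86 to 0.11. That median was -1.31 without DCIS 1 and 0.028 without DCIS 2.

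Of 20 interferon genes 3 were lower (Ifit1, Ifit3 and Rsad2, with log2 differences of -0.84, -1.17 and -0.78), and of 9 MHC class I genes none passed in either direction, nor under the stricter gate. The libraries differed in these genes: 6 of the 20 interferon genes had the same direction in both, against 7703 of all 11604 genes tested. The interferon median was 0.21 without DCIS 1 and -0.24 without DCIS 2, and the MHC class I median was 0.17 and -0.16 in the same order. No interferon gene passed under the stricter gate, with DESeq2, with no scaling factor or with thinned cells, and with cells thinned and sides set anew Rsad2 reversed to 0.25. Of 15 NF-kB targets the chemokine gene Ccl20 was higher by 0.62 and Ccl2 lower at -0.59, at a list median of 0.003. Over all genes tested 2.37% were higher and 6.58% lower, at a median of 0.01, so that these calls are no result about the list. The median of the NF-kB targets was 0.14 without DCIS 1 and -0.11 without DCIS 2. No NF-kB target passed under the stricter gate, and Ccl2 reversed to 0.28 (adjusted p = 0.454), as it did with the keratin minimum, to 0.35, and among cells with a cycle gene, to 0.02. Of 16 heat shock and immediate early genes 3 were lower (Hspb1, Atf3 and Ier3), and of 13 mitochondrial transcripts 5 were lower, with a median of -0.32. None of the heat shock and immediate early genes passed under the stricter gate, and 4 of the mitochondrial transcripts were lower.

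Ranked by the size of the difference, 9 of the 12 largest lower genes had no UMI in the T-antigen+ cells. The low-count filter kept such genes through their T-antigen- sums, and a count of 0 gives a large fitted difference. Their place in the ranking is thus a description only. Wif1, a secreted WNT inhibitor (chr10:121033960-121100650, plus strand), had 0 UMIs in T-antigen+ cells against 86 in T-antigen- cells of DCIS 1 and 110 in DCIS 2. With both libraries pooled and 3 counts allowed over the T-antigen+ group, this is 25.9-fold lower. Such pooled values ignore the pairing and are not lower bounds within libraries. Cyp1a1, a cytochrome P450 of the aryl hydrocarbon receptor response, had 0 against 16 and 91 UMIs, 14.1-fold lower when pooled. Pparg, a nuclear receptor of lipid metabolism, had 0 against 14 and 23, 4.89-fold lower when pooled. Nat8 had 0 and 1 UMIs against 71 and 205, and Kctd4 had 0 and 2 against 103 and 213. Among the 12 largest higher genes most were sparse. Ppef2, a calcium-binding phosphatase, had 20 and 15 UMIs in T-antigen+ cells against 2 and 9 in T-antigen- cells (3.03 ± 0.53 (SE), adjusted p = 0.0022). Cst6, cystatin E/M, was the abundant member, at 96.1 against 84.1 and 269 against 23.9 CPM (1.79 ± 0.51 (SE), adjusted p = 0.043). In DCIS 2, 586 of its 645 T-antigen+ UMIs lay in 1 cell, and without DCIS 2 the difference was 0.21 (adjusted p = 0.515).

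Within the T-antigen+ cells, those with 2 or more T-antigen UMIs were set beside those with 1. These classes also differ in depth, with medians of 12972 and 17469.5 UMIs in DCIS 1 and 13659.5 and 24683.5 in DCIS 2, and are described with no test. The CPM of the classes are shares of all UMIs with no TMM factor, unlike those above. Acta2 stood at 902, 36.3 and 4.08 CPM in cells of DCIS 1 with 0, 1 and 2 or more T-antigen UMIs, and at 1508, 55.4 and 11.7 in DCIS 2. Krt18 stood at 2875, 2426 and 1750 CPM and at 4159, 2929 and 2234 in the same order. Both had a lower value from class to class in each library. The Acta2 values of the upper classes rest on 92 and 8 UMIs in DCIS 1 and on 75 and 11 in DCIS 2. Top2a stood at 254, 378 and 441 CPM in DCIS 1 and at 128, 323 and 313 in DCIS 2, so that most of the distance lay between 0 and 1 UMI. Slc2a1, at 62.1, 18.5 and 16.3 CPM and at 205, 45.1 and 24.5, and Gdf15, at 122, 26.4 and 10.2 CPM and at 123, 24.4 and 25.6, had most of the distance there too. The sum of the endothelial markers also went from 143 to 17.0 and 10.7 CPM and from 123 to 31.1 and 14.9 over these classes.

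**Figure D3:**
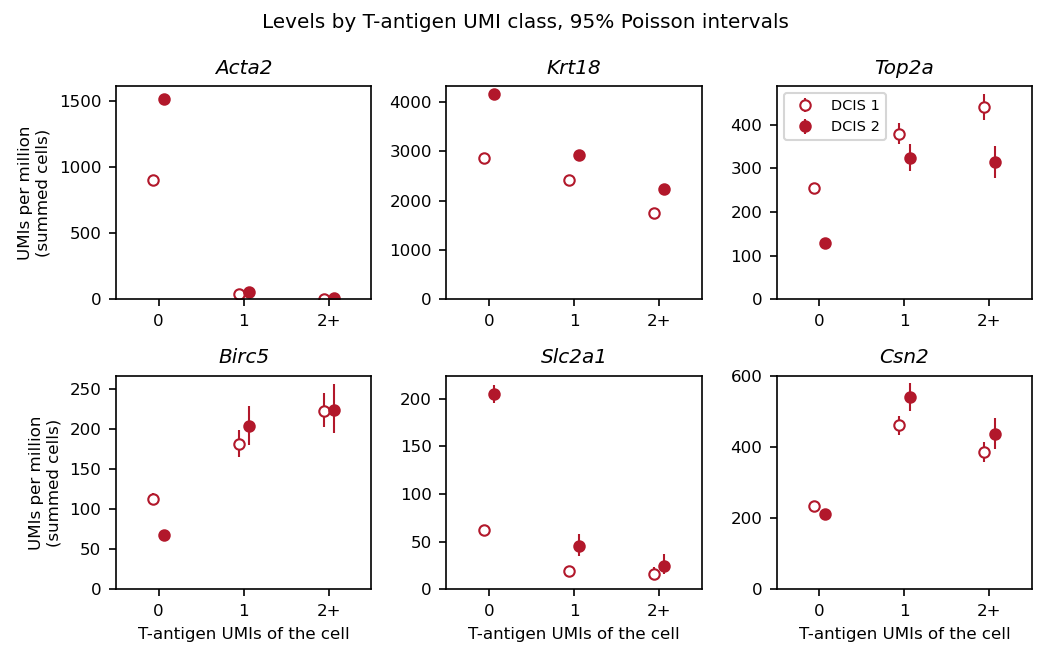
CPM of 6 genes in DCIS cells with 0, 1 and 2 or more T-antigen UMIs, by library, with Poisson 95% intervals. Acta2 goes from 902 to 4.08 CPM in DCIS 1 and from 1508 to 11.7 in DCIS 2, and Top2a is lowest at 0 UMIs in both libraries.

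The same gate and sides were applied to the Tumor libraries, which the choice of the DCIS cells did not use. They gave 2167 T-antigen+ and 733 T-antigen- cells in Tumor 1 and 853 and 568 in Tumor 2. There too the T-antigen+ cells were read more deeply, at medians of 16014 against 10432 UMIs in Tumor 1 and 21249 against 13343.5 in Tumor 2. With matched depth 302 genes passed in either direction. Of 13400 genes tested 35 (0.261%) were higher and 190 (1.42%) lower in T-antigen+ cells (1.68% in either direction). The 225 calls became 70 without Tumor 1 and 295 without Tumor 2. Mitosis genes were again among the higher ones, 12 of 28, with a median log2 difference of 0.39, whereas no S-phase gene and no gene of the RB list passed. Birc5 differed by 0.39 ± 0.07 (SE, adjusted p = 0.033) and Kif20a by 0.45 ± 0.09 (adjusted p = 0.042). The 6 immune and 5 endothelial markers tested were lower in T-antigen+ cells of Tumor as well, and 6 milk genes were lower. Among Dcn+ Epcam- cells of the Tumor libraries 15.8% and 47.9% held a T-antigen UMI, above the DCIS shares.

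The difference between the states was tested itself, and 39 of 13243 genes (0.294%) had a T-antigen+ minus T-antigen- difference in Tumor other than in DCIS. In 33 (0.249%) the Tumor value was the higher and in 6 (0.0453%) the lower, and 37 of the 39 had passed in DCIS. The 39 became 152 without Tumor 1, 174 without Tumor 2, 1238 without DCIS 1 and 239 without DCIS 2. Acta2 was low on both sides in Tumor, at 3.04 against 11.7 CPM and 0.159 against 2.32, with a difference of -2.34 there and a Tumor minus DCIS value of 3.23 ± 0.33 (SE, adjusted p = 0.031). Cnn1 and Actg2 had Tumor minus DCIS values of 4.81 and 4.003. Csn2 went the other way, at 0.0243 against 0 CPM in Tumor 1 and 0.912 against 10.3 in Tumor 2, with a Tumor minus DCIS value of -4.39 ± 0.32 (adjusted p = 0.016). Slc2a1, at 137 against 165 and 22.6 against 30.6 CPM, had a value of 1.91 ± 0.24 (adjusted p = 0.042). No gene of the S-phase, mitosis, RB or hormone-sensing lists differed between the states past the threshold, Birc5 having a value of -0.73 ± 0.22 (adjusted p = 0.241). Per the study's methods the tumours were dissociated with another kit and Tumor 2 was made with a later version of the library kit, so that state and preparation cannot be told apart.

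Prepuberty 1, with 28 T-antigen+ and 296 T-antigen- cells, gives 1 pair and no test, and Prepuberty 2 had 2 T-antigen+ cells. Acta2 stood at 3.3 against 432 CPM, Birc5 at 206 against 113 and Top2a at 272 against 131, each on the same side as in DCIS. Krt18, at 4884 against 4484 CPM, lay on the other side, and Csn2 was at 0 against 10.2. Cdkn2a was at 0 in T-antigen+ and 2.61 CPM in T-antigen- cells of Prepuberty 1, against 1385 and 1607 in T-antigen+ cells of Tumor 1 and Tumor 2.

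**Figure D4:**
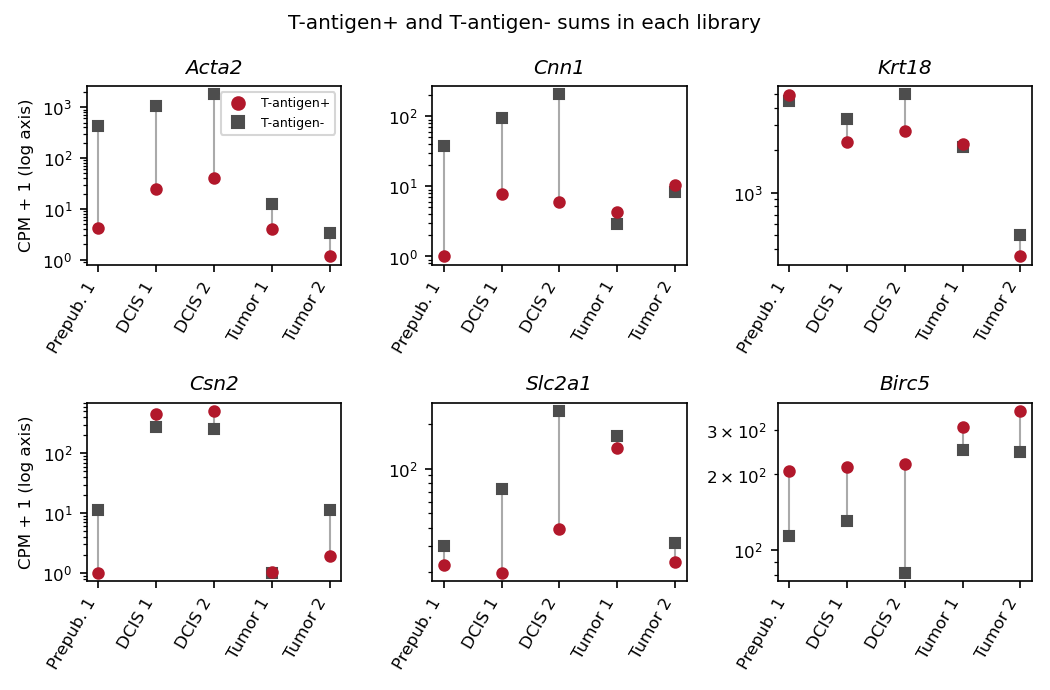
CPM plus 1, on a log axis, of 6 genes in T-antigen+ and T-antigen- cells of Prepuberty 1, both DCIS and both Tumor libraries. Acta2 and Cnn1 are lower in T-antigen+ cells of Prepuberty 1 and both DCIS libraries, while in the Tumor libraries Acta2 is at or under 11.7 CPM on both sides; Birc5 is higher in T-antigen+ cells of each library shown.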

How the data were processed

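Single-cell 3′ RNA sequencing (10x) of 6 libraries was used. The counts are UMIs per gene and cell as deposited by the authors, who made them with Cell Ranger (3.0.2 per the file headers) against a mouse reference to which the SV40 large T antigen was added. The submitters' processing notes name mm10, with no role given. Coordinates come from GENCODE M21 (GRCm38), and 31011 of 31055 features had a position.

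UMIs of gated cells were summed per library and side and tested with edgeR 4.0.16 (R 4.3.3, limma 3.58.1), by the quasi-likelihood F test with TMM scaling, a low-count filter by side and the library as a block, with Benjamini-Hochberg adjustment over all genes tested and a threshold of 0.05. T-antigen+ and T-antigen- sums are paired because both were cut from the same library. The DCIS fit has 4 sums and 1 residual degree of freedom, to which the spread shared across genes added a median of 12.6. An exact permutation over 2 pairs cannot go below p = 0.5. A fit that leaves out a DCIS library took its spread from the Tumor libraries. SE is the log2 difference divided by the square root of F. Differences per library used 2 CPM added. Tumor against DCIS was an interaction term over 8 sums, and CPM shown for Tumor and Prepuberty were scaled over 10 sums. Thinning drew 5000 UMIs per cell. Python 3.11.15 with scipy 1.17.1 and pandas 2.3.3 was used, and the steps were tested on simulated data. The authors' filtered barcodes were used; Scrublet (scanpy 1.11.5) called 5 and 3 doublets in DCIS 1 and DCIS 2, too few to rely on, so doublets were kept and an alternative removed the highest 2.74% and 3.42% of scores.

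Members, lists and tests were chosen with earlier results of these data known. Named genes are the 12 with the largest difference in each direction that passed and had the same direction in both libraries, the first 3 of each list and up to 6 more of each list that passed. Krt17, Trp63, Mcm6, Tyms, Cdc20, Ube2c, Pkm, Ltf, Lalba and Igkc were added after their values were seen. Alternatives were RLE and no scaling, DESeq2 1.42.0, no filter, no block, each library left out, depth matching, thinning and other gates; 5 of the 22 were chosen after seeing the data: cells with a cycle gene, the same without hormone-sensing and myoepithelial cells or matched on depth, the keratin minimum and no shared barcodes. A further alternative and some genes are not reported here.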

Additional observations from a re-analysis of the deposited data

Results flagged for a closer look

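The results given here are those in which the T-antigen+ minus T-antigen- difference was itself different between Tumor and DCIS by the interaction term (edgeR quasi-likelihood test, adjusted over 13243 genes). They numbered 39 (0.294%), and 152 to 1238 when any 1 of the 4 libraries was left out. No group had 4 samples, so that samples lying far from the rest of their group were not looked for.

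Of 11 basal and myoepithelial genes 3 passed, each with the higher value in Tumor. The Tumor minus DCIS value was 3.23 ± 0.33 (SE, adjusted p = 0.031) for Acta2, 4.81 ± 0.41 (adjusted p = 0.020) for Cnn1 and 4.003 ± 0.41 (adjusted p = 0.031) for Actg2, a smooth muscle actin. On both sides in Tumor all 3 were at or under 11.7 CPM.

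Of 13 milk and secretory genes 5 passed, each with the lower value in Tumor. It was -4.39 ± 0.32 (adjusted p = 0.016) for Csn2, -3.73 ± 0.45 (adjusted p = 0.042) for Csn1s1 and -1.25 ± 0.16 (adjusted p = 0.043) for Wfdc18. For Ltf, lactoferrin, it was -2.15 ± 0.20 (adjusted p = 0.025), and for Lalba, alpha-lactalbumin, the fitted value was -7.67 ± 0.89 (adjusted p = 0.048). Lalba was at 0 CPM in T-antigen+ cells of both Tumor libraries, against 0.56 and 6.71 CPM in T-antigen- cells, so that the size of its difference is set by the fit and not measured. Ltf and Lalba had not passed within DCIS. In Tumor 1 Csn2 had a UMI in 1 of 2167 T-antigen+ and 0 of 733 T-antigen- cells. In DCIS 5 cells held 92.0% and 72.1% of its T-antigen+ UMIs, and with cells thinned and sides set anew its DCIS difference was -1.45, the reverse of that reported.

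Gdf15 had a value of 1.99 ± 0.25 (adjusted p = 0.042) and Slc2a1 of 1.91 ± 0.24 (adjusted p = 0.042). The tumours were dissociated with another kit, and state and preparation cannot be told apart.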

How the results depend on the processing

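The counts of calls moved with the processing more than the directions did. Of 1828 values over 86 named genes and the alternatives, 1048 kept their direction and their side of the threshold, 736 kept the direction and no longer passed, 6 passed anew and 38 reversed. With 275 genes higher and 764 lower in DCIS as reported, RLE scaling gave 147 and 566, no scaling 185 and 444, DESeq2 24 and 222, and no filter on low counts 433 and 1059. Leaving out a library gave 212 to 876 higher and 526 to 1050 lower. Depth matching gave 79 and 332, thinned cells 15 and 225, thinned cells and sides 67 and 268, sides of 2 or more T-antigen UMIs 128 and 485, no UMI limit 75 and 491, 10000 or more UMIs 112 and 451, under 5% mitochondrial UMIs 76 and 475, and no high doublet scores 61 and 441. The stricter gate gave 17 and 163, removal of hormone-sensing and myoepithelial cells 35 and 296, and among alternatives chosen after seeing the data the counts were 68 and 168 for cycling cells, 32 and 78 for these without hormone-sensing and myoepithelial cells, 10 and 62 for these matched on depth, 53 and 251 with the keratin minimum and 73 and 470 without shared barcodes. The cause was not tested, except that several of these hold fewer cells by construction.

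Without the library as a replicate block, which ignores the pairing, 0 genes were higher and 8 lower in DCIS, 0 passed in Tumor and 0 in the Tumor against DCIS test. The 225 Tumor calls became 122 with DESeq2, 847 with no filter and 70 to 295 with a library left out. The 39 differences between Tumor and DCIS became 94 with DESeq2, 528 with no filter, 89 with thinned cells and 152 to 1238 with a library left out.

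Reversed values, as log2 differences, were as follows. Without hormone-sensing and myoepithelial cells they were 0.014 for Krt5, 0.15 for Tagln, 0.15 for Mylk, 0.038 for Trp63, -0.50 for Elf5, -0.63 for Ltf and -0.25 for Cst6. Among cycling cells without them they were 0.49 for Krt5, 0.42 for Mylk, 0.032 for Trp63, -0.50 for Elf5, 0.037 for Wap, -0.19 for Ltf, -0.028 for Rrm2, -0.060 for Tyms, -0.12 for Mcm6, 0.16 for Trp53inp1, 0.062 for Ccl2 and -0.38 for Cst6. With thinned cells and sides they were 0.12 for Esr1, -0.57 for Elf5, -1.45 for Csn2, -0.26 for Csn1s1, -0.59 for Ltf, -0.15 for Rb1, 0.076 for Trp53 and 0.25 for Rsad2. Elf5 was at -0.17 with thinned cells and at -0.053 without DCIS 2 (1.55 without DCIS 1), Csn3 at 0.0034 with no scaling, and Csn1s1 at -0.10 with 2 or more T-antigen UMIs. Lalba was at 0.10 and Ccl2 at 0.28 under the stricter gate, and at 0.0045 and 0.35 with the keratin minimum. Among cycling cells Wap was at 0.11 and Ccl2 at 0.016, and Ccl2 at 0.13 when matched on depth. The comparison of cells without cycle genes was not run, since DCIS 2 had 1 such T-antigen+ cell.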
